A study of Mus musculus with 3 samples.

Results

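Antioxidant enzyme genes were followed in an Ets-1 ChIP-seq experiment on Min6 cells, a mouse insulinoma line that secretes insulin. The group comprised 10 genes: Sod1, Sod2, Cat, Gpx1, Gpx4, Prdx1, Prdx3, Txn1, Txnrd1 and Nfe2l2. Every region whose deposited nearest gene carried one of these names was taken, without regard to its reads. This gave 61 of the 543367 regions in the authors' table that compares both viruses, 35 of the 339856 peaks listed for the control virus and 29 of the 237322 peaks listed for the Ets-1 virus. Chromatin was precipitated with an antibody to Ets-1 24 h after infection with Ad-GFP, the control adenovirus, or with Ad-Ets-1, the virus used to overexpress Ets-1. Input chromatin that had not been precipitated was sequenced as well. All cells grew in 25 mM glucose, and the labels give no virus for the input. There was 1 library per group, so differences could not be set against replicates and none was tested.

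Superoxide dismutases turn superoxide into hydrogen peroxide, which catalase, glutathione peroxidases and peroxiredoxins then remove. Peroxiredoxins draw their reducing power from thioredoxin, which thioredoxin reductase recharges, and the factor Nrf2, encoded by Nfe2l2, switches on many of these genes through antioxidant response elements in their regulatory DNA. Pancreatic β cells are known for low levels of catalase and glutathione peroxidase, which leaves them sensitive to oxidative damage. ChIP reads show where DNA was recovered with the antibody and say nothing of the level of a transcript, so β-cell identity was not checked from expression.

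The libraries held 1938473 reads with Ad-Ets-1, 1775757 with Ad-GFP and 3937473 in the input. Of these, 94, 81 and 3 reads fell in the 61 regions. Even counts made up 72.0% and 74.5% of the nonzero counts in the precipitated libraries, against 19.0% in the input, so 1 DNA fragment appears to count as 2 reads there. Ratios are reads scaled to the library totals, with 3 reads as a floor for a library at 0, and their 95% exact intervals were computed on fragments. Intervals cover counting error only, and PCR copies without molecular identifiers are not independent molecules. Ets1 itself had 15 regions, none above 2 reads in a precipitated library, so the level of Ets-1 could not be checked from these files.

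The 4 regions with 5 or more reads in a precipitated library are shown first, those of Cat, Sod1, Txnrd1 and Prdx1. The first 3 were read with Ad-Ets-1 and not with Ad-GFP, and Prdx1 the reverse. In the authors' deposited Ad-Ets-1 list the peaks at Cat, Sod1 and Txnrd1 had a −log10 q of at least 1.3 (a q of 0.05), 3 of the 29 peaks of the 10 genes (10.3%), where 1.44% of all peaks in that list did. In the deposited Ad-GFP list 0 of 35 did, where 0.827% of all peaks did. A further sequence lies inside Nfe2l2 but has another gene as its deposited nearest gene, and was chosen after its value was seen. All are mm10 (GRCm38) reference bases of the RefSeq assembly, 5′ to 3′ on the strand of the gene. In Cat, Txnrd1, Prdx1 and Nfe2l2 the capitals mark GGAA or its complement TTCC, the core that ETS factors recognise; in Sod1 they mark the bases not soft-masked as repeat. Cat is shown upstream of its first exon and Txnrd1 and Prdx1 as the 100 bases to either side of the peak summit.
Cat (chr2:103485161-103485424, minus strand): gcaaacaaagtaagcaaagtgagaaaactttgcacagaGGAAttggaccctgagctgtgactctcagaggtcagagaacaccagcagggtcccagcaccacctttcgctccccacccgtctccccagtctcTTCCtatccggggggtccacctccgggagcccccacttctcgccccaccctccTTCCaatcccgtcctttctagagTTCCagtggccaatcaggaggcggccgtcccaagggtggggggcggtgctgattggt
Sod1 (chr16:90219514-90219765, plus strand): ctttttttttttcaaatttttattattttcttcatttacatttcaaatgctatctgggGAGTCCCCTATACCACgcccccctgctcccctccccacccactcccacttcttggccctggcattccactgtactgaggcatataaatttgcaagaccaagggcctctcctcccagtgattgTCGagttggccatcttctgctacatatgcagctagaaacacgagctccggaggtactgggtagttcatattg
Txnrd1 (chr10:82910035-82910235, plus strand): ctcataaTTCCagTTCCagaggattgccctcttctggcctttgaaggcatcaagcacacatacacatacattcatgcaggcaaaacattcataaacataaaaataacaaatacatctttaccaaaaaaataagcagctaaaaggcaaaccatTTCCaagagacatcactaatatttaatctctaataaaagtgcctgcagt
Prdx1 (chr4:116696593-116696793, plus strand): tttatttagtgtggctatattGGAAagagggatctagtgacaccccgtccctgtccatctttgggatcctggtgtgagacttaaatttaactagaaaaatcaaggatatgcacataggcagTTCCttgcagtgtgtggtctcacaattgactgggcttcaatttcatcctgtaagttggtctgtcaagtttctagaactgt
Nfe2l2 (chr2:75681409-75681667, minus strand): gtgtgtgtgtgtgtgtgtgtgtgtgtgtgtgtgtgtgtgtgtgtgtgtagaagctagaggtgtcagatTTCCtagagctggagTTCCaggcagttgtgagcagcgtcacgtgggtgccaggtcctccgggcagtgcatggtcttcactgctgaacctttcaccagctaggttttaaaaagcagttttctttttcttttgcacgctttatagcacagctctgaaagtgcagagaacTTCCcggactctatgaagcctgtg

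The GGAA core occurred 4 times in the Cat stretch, 3 times in the Txnrd1 stretch, 2 times in the Prdx1 stretch and 3 times in the Nfe2l2 region. In the Sod1 region, where the capitals do not mark it, it occurred 1 time. The core alone is common: 58 of the 61 regions held it, as did 96.0% of the 32851 RefSeq promoter windows, which run from 250 bases before a start site to 50 after. None of these 5 sequences held either longer ETS word searched on both strands, CCGGAAGT or CAGGAAGT. The Sod1 region consisted almost wholly of masked repeat, 233 of its 252 bases, whereas 7.35% of the Cat region was masked.

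Most of the 61 regions rested on very little DNA, as did most compared regions. In 43 regions neither precipitated library held more than 2 reads (70.5%, beside 80.8% of all regions). In 14 the higher library held 3 to 4 (23.0%, beside 15.1%). The remaining 4 regions reached 5 reads, where 4.13% of all compared regions did so. The input had 0 reads in 58 of the 61 (95.1%, beside 93.6%). The median was 1 read per region in each precipitated library, against 0 with Ad-Ets-1 and 2 with Ad-GFP over all regions. Both libraries were called in 3 regions, or 4.92%, beside 6.13% of all regions; 26 appeared with Ad-Ets-1 alone (42.6%, beside 37.5% of all regions) and 32 with Ad-GFP alone (52.5%, beside 56.4%).

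**Figure D1:**
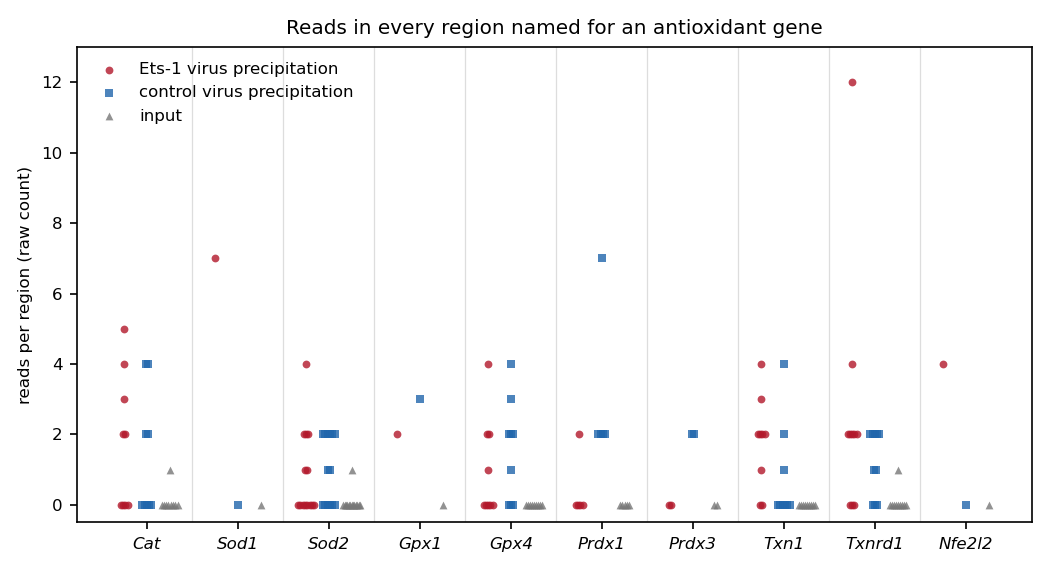
Raw reads (vertical axis) in each of the 61 regions, by gene, with 1 point per region and library and points spread sideways only to separate equal values. All input points lie at 0 or 1, and the 4 regions above 4 reads belong to Cat, Sod1, Prdx1 and Txnrd1.

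Among the dismutases, the only region of Sod1, which encodes the cytosolic copper-zinc enzyme, was the one printed above, 989 bases upstream of its start site. It held 7 reads with Ad-Ets-1, 0 with Ad-GFP and 0 in the input. The Ad-Ets-1 library was thus the only one with reads. Against the floor the ratio was 2.14, and the exact interval on 4 and 0 fragments began at 0.605, below 1, so the difference was within counting error. The authors' deposited fold over background was 4.18, at a −log10 q of 1.54; 1631 of the peaks in that list shared this q value and 583 had a higher one. No region overlapped the RefSeq promoter window of Sod1 itself.

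Sod2, the mitochondrial manganese enzyme, had the most regions of the 10 genes, 14 in all. Across them the Ad-Ets-1 library held 12 reads, the Ad-GFP library 14 and the input 1. No Sod2 region held more than 4 reads, and none held reads in both precipitated libraries. Of its 5 promoter regions, 2 were called with Ad-Ets-1 and 3 with Ad-GFP, with 6 reads in all from each. The strongest (chromosome 17, 13008760 to 13009089) held 4 reads with Ad-Ets-1 and 0 with Ad-GFP, and lay in an intron 576 bases past the start of an annotated transcript.

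Cat, the peroxisomal enzyme that splits hydrogen peroxide, had 9 regions. Its promoter region (chromosome 2, 103485112 to 103485424) spans the first exon's untranslated bases and the upstream sequence printed above. It held 5 reads with Ad-Ets-1, 0 with Ad-GFP and 0 in the input. A second promoter region, 732 bases upstream, held 3, 0 and 0. Both thus had reads with Ad-Ets-1 alone, 8 against 0. At the first of them the ratio against the floor was 1.53, the interval on 3 and 0 fragments began at 0.379, and the authors' deposited fold was 3.64. The 7 other regions lay 10193 to 28968 bases upstream and showed no such pattern: 4 held only Ad-GFP reads among the precipitated libraries, 2 to 4 each, and 3 held only Ad-Ets-1 reads, also 2 to 4 each.

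The glutathione peroxidases carried few reads. Gpx1, the abundant cytosolic enzyme, had a single region (chromosome 9, 108339621 to 108339956) with 2 reads with Ad-Ets-1, 3 with Ad-GFP and 0 in the input. Although its class is promoter, it overlapped coding sequence of the gene. Gpx4, which reduces lipid peroxides in membranes, had 9 regions with 9 reads in all with Ad-Ets-1, 14 with Ad-GFP and 0 in the input. The highest of them held 4 reads, and a library difference was not detectable in any. Its 5 promoter regions were assigned to alternative transcripts inside the gene, and none overlapped the first of its 4 RefSeq promoter windows. A further 3 of the 9 Gpx4 regions lay over coding exons of Sbno2, the adjoining gene.

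Of the peroxiredoxins, Prdx1, a cytosolic enzyme, had 5 regions, all intronic, with 2 reads in all with Ad-Ets-1 and 15 with Ad-GFP. Each of the 5 was called with Ad-GFP and 1 with Ad-Ets-1 as well. The leading region (chromosome 4, 116696405 to 116696971) held 0 reads with Ad-Ets-1, 7 with Ad-GFP and 0 in the input. Of the 4 member regions with 5 or more reads it was the only one read with Ad-GFP. Its ratio against the floor was 0.393 with an interval of 0 to 1.39, and 61.02% of its bases were masked repeat, though 1.49% of the printed stretch was. Prdx3, the mitochondrial enzyme, had 2 regions, each with 2 Ad-GFP reads and none from the other libraries, 1 of them at its promoter, 138 bases upstream.

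Txn1, thioredoxin itself, had 9 regions holding 16 reads in all with Ad-Ets-1, 7 with Ad-GFP and 0 in the input. No single region exceeded 4 reads. A region 34 bases past its start site (chromosome 4, 57956129 to 57956377) held 2 reads with Ad-Ets-1 and 0 with Ad-GFP. Txnrd1, the cytosolic thioredoxin reductase, had 10 regions with 26, 12 and 1 reads. Of the 26, 12 came from 1 distal region (chromosome 10, 82909909 to 82910998), which held 0 reads with Ad-GFP and 1 in the input, so that the other 9 regions held 14 and 12. That region was the widest of the 61, at 1090 bases, and lay 12197 bases beyond the end of the gene. Masked repeat made up 26.1% of it and 57.7% of the printed stretch. The authors' deposited fold of 3.64 and −log10 q of 1.54 equalled those of the Cat peak. For the distal Txnrd1 region the ratio against the floor was 3.66, and the interval on 6 and 0 fragments began at 1.08. It was the only one of the 4 regions with 5 or more reads whose interval lay above 1. Of all 22425 such regions 0.941% lay above 1. None of the 4 lay below 1, against 1.72% of all such regions. The Txnrd1 region was called with Ad-Ets-1 alone and reached 5 reads only through that library. Its interval is therefore not independent of how the region was chosen.

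Nfe2l2, the regulator, had 1 named region, in its first intron (chromosome 2, 75696250 to 75696632), with 4 reads with Ad-Ets-1, 0 with Ad-GFP and 0 in the input. More reads lay elsewhere in the same intron. The Nfe2l2 region printed above held 9 reads with Ad-Ets-1, 0 with Ad-GFP and 1 in the input, and its deposited fold of 4.51 and −log10 q of 2.44 exceeded those of all 29 listed Ad-Ets-1 peaks of the 10 genes. Its deposited nearest gene has an identifier but no symbol, and GENCODE M21 names that gene Gm24996. The start of Gm24996 lay 5171 bases away, while the start of Nfe2l2 lay 22974 bases away. The ratio against the floor was 2.75 with an interval that began at 0.839, and 50.2% of the bases were masked; the printed sequence opens with a run of GT repeats. Of the other regions assigned to Gm24996, 1 held 4 reads with Ad-Ets-1 and 0 with Ad-GFP, and 1 held 0 and 2.

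Counted by position, over each gene and 3 kb to either side whatever the nearest gene, Nfe2l2 had 17 reads with Ad-Ets-1 and 2 with Ad-GFP. Prdx1 had 2 and 21, of which 5 Ad-GFP reads lay in a region inside the gene that is named for Mmachc. Txnrd1 had 19 and 19 without its distal region, which lies outside this window. Sod1 had 7 and 0 and Cat 8 and 0. Sod2 had 10 and 12, Gpx1 2 and 5, Gpx4 9 and 9, Prdx3 2 and 2, and Txn1 7 and 6. The genes thus went in both directions, and these sums come from regions chosen by peak calling in 1 library each.

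**Figure D2:**
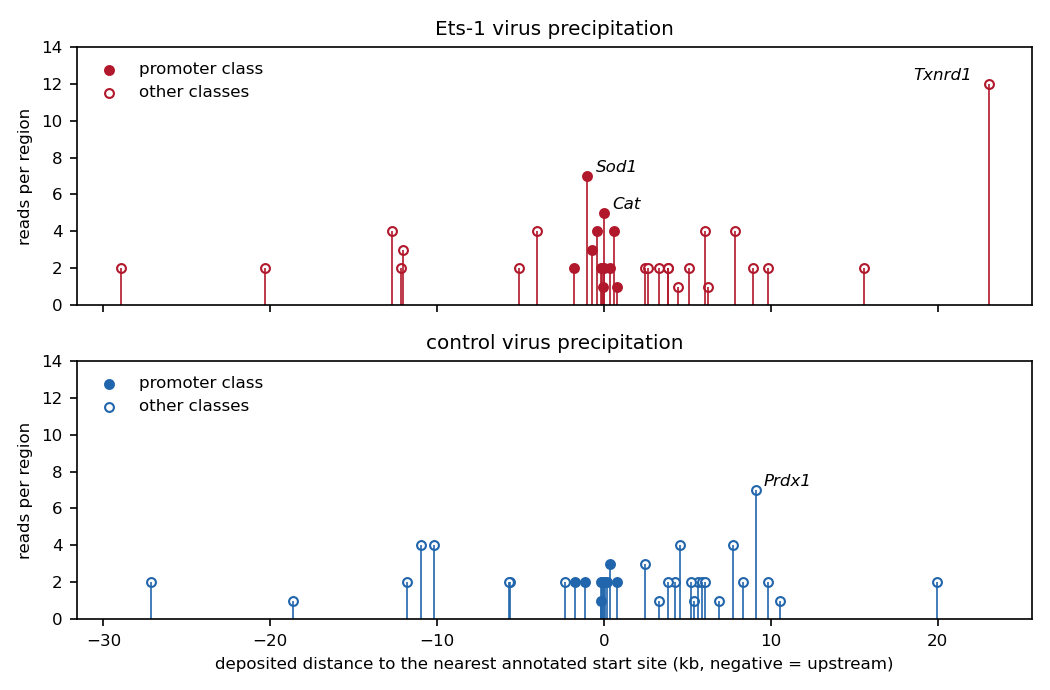
Reads per region (vertical axis) against the deposited distance to the nearest annotated start site in kb (horizontal axis), for regions with at least 1 read, in the Ad-Ets-1 library above and the Ad-GFP library below; filled points are promoter regions. Names mark regions of 5 or more reads: with Ad-Ets-1 Sod1, Cat and the distal Txnrd1 region, with Ad-GFP the intronic Prdx1 region.

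By count of genes, 8 of the 10 had a promoter region in the comparison table, where 62% of all 19054 named genes did; Prdx1 and Nfe2l2 had none. In the peak lists, 6 of 10 had a promoter peak with Ad-GFP, beside 48.6% of genes, and 6 of 10 with Ad-Ets-1, beside 37.7%. The members differed: Cat and Sod1 were listed with Ad-Ets-1 alone, Gpx1 and Prdx3 with Ad-GFP alone, and Sod2, Gpx4, Txn1 and Txnrd1 with both. At a −log10 q of at least 1.3, Cat and Sod1 remained with Ad-Ets-1, 2 of 10 beside 1.81% of genes, and 0 of 10 with Ad-GFP, beside 0.75%. The same genes, 2 of 10, had a promoter region of at least 5 reads, beside 8.39% of genes. Each of these counts of 2 rests on 12 reads in 1 library.

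The promoter class also takes in alternative starts. A compared region overlapped a RefSeq promoter window of 4 of the 10 genes: Cat, Gpx4, Prdx3 and Txn1. Of all 27025 genes with such a window, 12.4% had one overlapped. A gene can have several windows, and by window the count was 4 of 15, beside 11.2% of 32851. The 27025 genes also include those that no region names. Only at 1 of the 4, Cat, did the overlapping region hold more than 2 reads. Those reads were counted over the whole region and not within the window alone. Within 3 kb of the gene bodies the 10 genes had a median of 2.39 regions per 10 kb, from 0.536 at Cat to 4.58 at Gpx4, where the median over 21938 protein-coding genes was 1.63. Of the 57 regions in those windows, 14 carried another nearest gene.

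By annotation, 20 of the 61 regions were promoter regions, 32.8% (95% exact interval 21.3 to 46.0), against 7.69% of all regions and 11.1% of the 211371 regions whose nearest gene has a symbol. Introns took 17 regions (27.9%, beside 34.1% of all regions) and distal intergenic sequence 17 (27.9%, beside 52.6%). Exons took 3 (4.9%, beside 2.5%), 3′ untranslated regions 3 (4.9%, beside 1.4%) and downstream sequence 1 (1.64%, beside 1.60%). Sod2 and Gpx4 supplied 10 of the 20 promoter regions. The regions are not independent, since those of 1 gene share its annotation. Median GC content was 45.4% over the 61 regions and 40.3% over all, and the median masked share 21.9% and 24.8%.

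**Figure D3:**
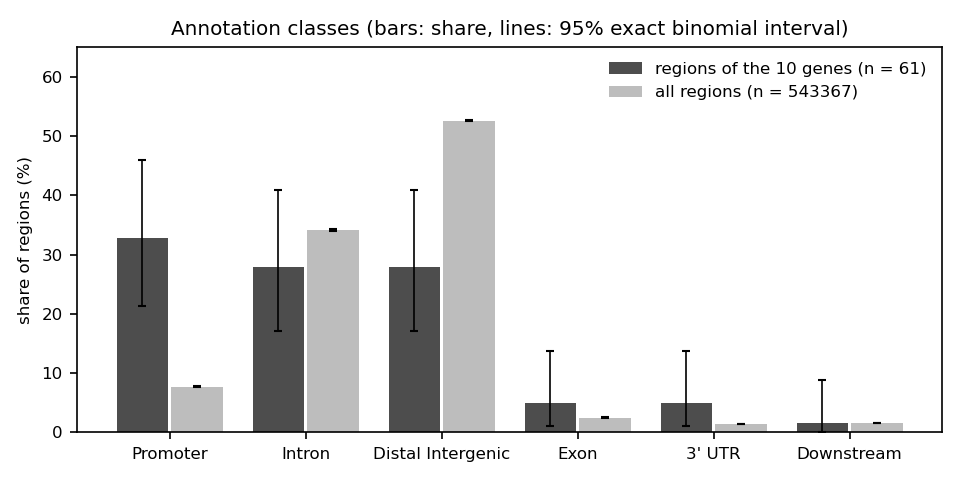
Share of regions in each deposited annotation class (vertical axis, %), for the 61 regions of the 10 genes (dark) and all 543367 compared regions (light); lines are 95% exact binomial intervals. Promoter regions make up 32.8% of the dark bars and 7.69% of the light ones.

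Between the viruses, 28 of the 61 regions had the higher scaled reads with Ad-Ets-1, 45.9% (33.1 to 59.1), where 39.6% of all regions did. Of the 4 regions with 5 or more reads, 2 were past 2-fold higher, Sod1 and the distal Txnrd1 region, where 19.3% of such regions were. At Prdx1, 1 was past 2-fold lower, where 38.7% were. Each of the 4 was called in 1 list alone and held 0 reads in the other precipitated library. Whether it passed 2-fold thus depended only on its higher count against the floor of 3 reads. Summed over the 20 promoter regions, which cover 5.37 kb, the Ad-Ets-1 library held 35 reads, or 6.51 per kb, and the Ad-GFP library 22, or 4.09 per kb, with 0 in the input. The ratio was 1.46 with an interval of 0.671 to 3.51. Over the 41 other regions, which cover 12.5 kb, both libraries held 59 reads, or 4.70 per kb, a ratio of 0.916 (0.534 to 1.57). Over all promoter regions but the 1000 with most reads the same ratio was 0.706. Over all other regions but their own 1000 with most reads it was 0.704. Both intervals span 1, so no difference between the viruses was detectable in either sum. The regions were chosen by calls in the precipitated libraries, so the low input there is no measure of enrichment.

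**Figure D4:**
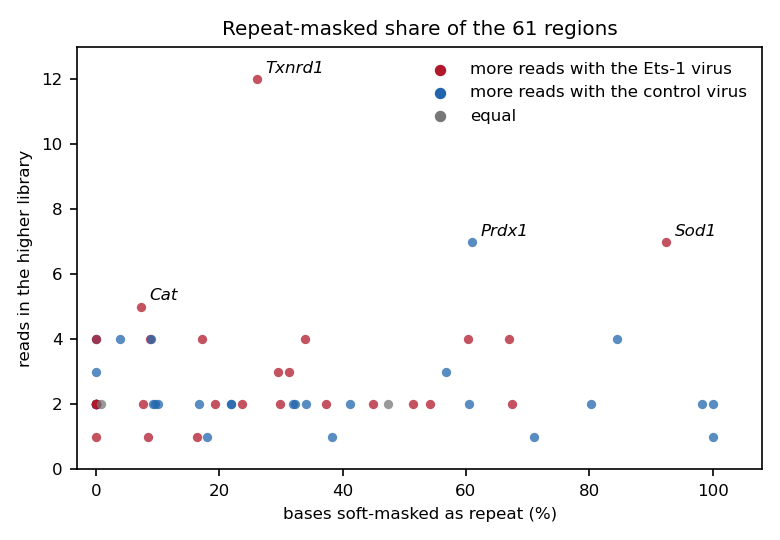
Reads in the higher precipitated library (vertical axis) against the share of bases soft-masked as repeat (horizontal axis, %), 1 point per region, red where the Ad-Ets-1 library held more reads blue where the Ad-GFP library did and grey in the 2 regions where both were equal. Of the labelled regions, Cat lies at 7.35% masked, Txnrd1 at 26.1%, Prdx1 at 61.02% and Sod1 at 92.5%.

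Word searches on both strands found few matches. CCGGAAGT occurred in 0 of the 61 regions, which allows a share of up to 5.87% by the exact interval, and in 0.166% of all regions. CAGGAAGT, which differs at the second base and cannot share a site with it, occurred in 2 of 61, or 3.28%, beside 1.73% of all regions. They lie in the Gpx1 region and in a fully masked repeat upstream of Sod2. The Gpx1 region overlaps coding sequence, but whether the word itself is coding was not checked. Both stretches are shown with the word in capitals.
Gpx1 (chr9:108339669-108339696, minus strand): gatgagtcacCAGGAAGTtgccctcctt
Sod2 (chr17:13005040-13005067, plus strand): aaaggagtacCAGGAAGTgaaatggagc

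In the 15 RefSeq promoter windows of the 10 genes, all of which were in the table of windows, neither ETS word occurred, where 7.07% of all windows held at least 1 of them. The core of the antioxidant response element, searched as TGACNNNGC, occurred in 4 of the 15 windows, those of Sod1, Prdx1, Nfe2l2 and 1 of 3 Txnrd1 windows, beside 12.4% of all windows. The matches read TGACCACGC in Sod1, TGACTCAGC in Prdx1, TGACTCCGC in Nfe2l2 and TGACAAAGC in Txnrd1. None of these 4 windows was overlapped by a compared region. Among the 61 regions, 6 held that core, or 9.84%, beside 6.73% of all regions. A match is a run of letters and not a measured site.

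Other genes of the pathway were read from a list of 36, which held Nrf2 partners, glutathione and thioredoxin enzymes and further peroxidases. In the tables as used here 25 of the 36 were named as a nearest gene, with 200 regions. A promoter region was listed for 10 of the 25 (40%, beside 62% of named genes), a promoter peak with Ad-Ets-1 for 5 (20%, beside 37.7%) and with Ad-GFP for 8 (32%, beside 48.6%). Each of these shares was below that of all named genes, but the counts are small and the differences were not tested. The shares leave out the 11 genes of the list that were not named. Promoter regions of at least 8 reads were those of Nfe2l1, Txn2 and Txnip. Nfe2l1, a relative of Nrf2, held 9 reads with Ad-Ets-1, 0 with Ad-GFP and 2 in the input at its start site, and Txn2, mitochondrial thioredoxin, held 8, 0 and 0 in a region upstream of its start. The intervals of both began below 1, at 0.839 and 0.605. Txnip, which binds and inhibits thioredoxin, went the other way. Its strongest promoter region held 6 reads with Ad-Ets-1, 47 with Ad-GFP and 11 in the input (ratio 0.117, interval 0.0221 to 0.377). The other Txnip promoter regions also held fewer Ad-Ets-1 reads, but their intervals span 1. They held 10, 17 and 4 reads (ratio 0.539, interval 0.134 to 1.691) and 3, 7 and 0 (ratio 0.393, interval 0.0414 to 3.196). The difference beyond counting error thus lay only in the Txnip region with most input reads. Of the wider list, only Txnip had a promoter peak at a −log10 q of at least 1.3 in either peak list. Both peak lists held such a Txnip peak.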

How the data were processed

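Ets-1 ChIP-seq of Min6 cells was read from 3 deposited files. Crosslinking was in 1% formaldehyde for 10 min, per the labels' protocols. FastQC, Trimmomatic, BWA 0.7.12 and MACS2 2.1.0 with build mm10 are named in the submitters' processing notes; their settings and the role of the input were not stated there. In the peak lists the authors deposited a fold enrichment (a ratio), −log10 p and q values and a score per peak. The authors deposited, in the table of both viruses, counts of reads, RPM values of the count plus 1, ratios of these to the input and a log2 ratio of both viruses, per the file headers; only counts were used here, and RPM gave the library totals, the same within 1% for every region. Peak list starts were raised by 1.

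Members, lists and thresholds were chosen with earlier results of these data known. All 10 genes are described, with regions of 5 or more reads or a −log10 q of at least 1.3 in full; of the wider list, genes with a promoter region of 8 or more reads are named. Intervals are exact conditional binomial (ratios, 2 reads to a fragment, rounded up) or Clopper-Pearson (shares) at 95%. The ratio intervals alone were run on simulated fragment counts. Those counts had counting error only, without PCR copies or the choice of regions by peak calls, so the run cannot speak to either. No ratio is given where both libraries held 3 or fewer reads. Coordinates of all 70 transcripts listed for these genes and the wider list equalled GENCODE M21 (GRCm38), which gave exons and neighbouring genes. Sequences, soft-masking and promoter windows are those of RefSeq GRCm38.p6. The GGAA search was added after the other words. Software was scipy 1.17.1, pandas 2.3.3, numpy 2.4.6 and matplotlib 3.10.9 under Python 3.11.15.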

Additional observations from a re-analysis of the deposited data

How the results depend on the processing

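All alternatives were planned. The 8 genes with a promoter region stayed 8 at a distance of at most 1 kb but fell to 2 with at least 5 reads and to 0 with at least 8. Genes with a promoter peak went from 6 to 0 with the control virus and from 6 to 2 with the Ets-1 virus, both at a −log10 q of at least 1.3 and at a fold of at least 3. The share of regions higher with the Ets-1 virus was 45.9% with other totals and 75% among the 4 regions of at least 5 reads (19.4 to 99.4). Each of those 4 reached 5 reads through 1 library alone. The summed promoter ratio of 1.46 became 1.17 without the Sod1 region and 1.68 within 1 kb, and every one of these intervals spans 1. The ratios of single regions depend on how a count of 0 is treated: with 1 read added to both libraries they were 5.50 at Cat, 7.33 at Sod1, 11.9 at Txnrd1 and 0.115 at Prdx1, with the direction of each unchanged. No paired analysis was possible because no group has replicates. Depth limits every value: 4 of the 61 regions held more than 4 reads in a precipitated library.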
